A study of Mus musculus with 6 samples.

Results

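The ADAM genes encode membrane proteins that carry a disintegrin and a metalloprotease domain. Their members were taken as every gene of the deposited tables whose symbol begins with Adam followed by a digit, which leaves out the secreted ADAMTS relatives. Of the 24411 genes in each table, 33 met this rule. Of these, 28 had a mean of at least 1 TPM (a transcript's share of the library, corrected for its length) in the libraries labelled WT, and 5 were below it. The rule used no difference between genotypes, but the members were chosen with earlier results of these data known.

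ADAM proteins fall into groups by what they do. Some are active proteases that cut growth factors, cytokines, adhesion molecules or Notch from the cell surface. Others have lost the zinc-binding active site and act in adhesion. In the testis a large set is made by developing germ cells and carried on sperm. Fertilin is a dimer of ADAM1 and ADAM2, and ADAM3 (cyritestin) is needed for sperm to pass from the uterus into the oviduct and to bind the zona pellucida. ADAM3 depends for its place on the sperm surface on endoplasmic reticulum chaperones and on other sperm ADAMs.

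Whole testes of age-matched C57BL/6 mice, a standard inbred strain, were measured by RNA sequencing. The label of 3 libraries gives the genotype MRP5-/- and MRP9-/- (labelled DKO here), and that of the other 3 gives Wildtype (labelled WT). MRP5 and MRP9 are membrane transporters encoded by Abcc5 and Abcc12. The labels give neither the design of the alleles nor the age of the animals, and do not say whether a library is 1 animal, so p-values measure the spread between these libraries.

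Library totals were 42673615 to 67131103 expected counts for labelled DKO and 26753721 to 31745969 for labelled WT, and the mean sequenced fragment was 275.5 to 317.4 bases against 230.4 to 257.9 bases, with no overlap in either measure. Abcc12 was lower in the libraries labelled DKO (log2 fold change -1.02, SE 0.0739; edgeR quasi-likelihood test, adjusted p = 0.000307), but still counted there. Abcc5 was higher (0.56, SE 0.0896; edgeR adjusted p = 0.0225), which goes against the label as far as whole-gene counts can show, so the groups are named by their labels throughout. Summed markers of spermatids were at 107084 to 117096 TPM in libraries labelled DKO and 99619 to 108832 TPM in those labelled WT. These sums follow Prm2, Prm1, Tnp1 and Tnp2, by far the highest in level. From counts their log2 fold changes were -0.11, -0.22, -0.16 and 0.05, none called with edgeR, so the sums show no rise of spermatid RNA. Epididymis markers summed to at most 1.17 TPM in any library, and 2 of their 7 genes were at 0 in all 6.

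Many germ-cell ADAMs are copies of one another, which decides how far their counts can be told apart. The 33 genes lie on 10 chromosomes, with 13 of them on chromosome 8 and 5 on chromosome 12 (RefSeq, GRCm38.p6, the assembly of the mm10 build in the submitters' processing notes). Adam18, Adam3, Adam5, Adam32 and Adam9 lie side by side on chromosome 8 between bases 24602246 and 25017040. Adam24, Adam25, Adam20 and Adam39 lie between 40675077 and 40826861, and Adam26b, Adam26a and Adam34 between 43519864 and 43665560 of the same chromosome. Of the 21 members placed in the fertilin and sperm-surface group, 15 have their whole coding sequence in 1 exon (GENCODE M21), as is usual for retrotransposed genes. In the coding sequences, Adam1a and Adam1b share an identical run of 1082 bases, Adam20 and Adam25 one of 391, Adam25 and Adam39 one of 348, Adam6a and Adam6b one of 223, and Adam26a and Adam26b one of 210. A fragment from such a run has no unique origin, and 9 of these 10 members (all but Adam34, in 1) carried fractional counts in all 6 libraries.

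The coding strands of 2 copied pairs are shown because they set what the counts can resolve. Capitals mark the bases that differ within a pair. The Adam6a and Adam6b stretch (chr12:113544894-113544953 and chr12:113490450-113490509, plus strand, GRCm38, coding exon) is where this pair differs most, at 19 of 60 bases, while the whole coding sequences are 94.9% identical.
Adam6a: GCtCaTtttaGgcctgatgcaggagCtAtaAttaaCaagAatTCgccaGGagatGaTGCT
Adam6b: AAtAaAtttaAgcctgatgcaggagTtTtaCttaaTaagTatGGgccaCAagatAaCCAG
The Adam1a and Adam1b stretch (chr5:121519946-121520005 and chr5:121501794-121501853, minus strand, GRCm38, coding exon) shows an end of their longest identical run, where 2 of 60 bases differ. Outside the run the genes diverge, with 81.5% identity over the aligned coding sequence.
Adam1a: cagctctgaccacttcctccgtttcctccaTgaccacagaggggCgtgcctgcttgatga
Adam1b: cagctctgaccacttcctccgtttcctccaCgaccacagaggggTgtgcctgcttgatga

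Adam3 had the highest level of the family. It was at 900.50, 933.63 and 953.53 TPM in libraries labelled WT and at 872.87, 913.01 and 797.71 TPM in those labelled DKO. The values of the groups overlapped, and Adam3 alone made up 27.2% of the summed family level in labelled WT. Adam5, its neighbour on chromosome 8 and also a sperm-surface gene, followed at 718 ± 15.6 TPM in labelled WT (SD, n = 3), above Adam32 at 386 ± 3.69 TPM. The genes for ADAM1 (Adam1a and Adam1b) and ADAM2 were next in order. Adam1a was at 274 ± 7.18 TPM and Adam2 at 253 ± 3.56 TPM, and Adam1b at 128 ± 7.92 TPM (labelled WT; SD, n = 3 each). The 6 genes with the highest level held 77.7% to 79.5% of the family sum in libraries labelled WT and 76.6% to 78.4% in those labelled DKO.

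The other germ-cell members formed a plateau below these. Adam18, Adam30, Adam20, Adam24, Adam26a, Adam6a, Adam39 and Adam25 had means of 42.4 to 87.9 TPM in labelled WT. Adam20, Adam24 and Adam26a, at 64.2 ± 3.82, 64.2 ± 5.38 and 63.8 ± 4.70 TPM, did not differ beyond their spread. Adam4, Adam6b and Adam29 had 38.9 ± 3.59, 38.6 ± 4.61 and 36.6 ± 5.35 TPM, again within one another's spread. Adam21, Adam26b and Adam34 came last in this group at 22.3, 16.8 and 15.8 TPM. Together the group held 98.1% to 98.4% of the family sum in labelled WT. Adam7, which is placed in it for its role on sperm but is known as an epididymal gene, had at most 1 count in any library and was not tested.

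**Figure D1:**
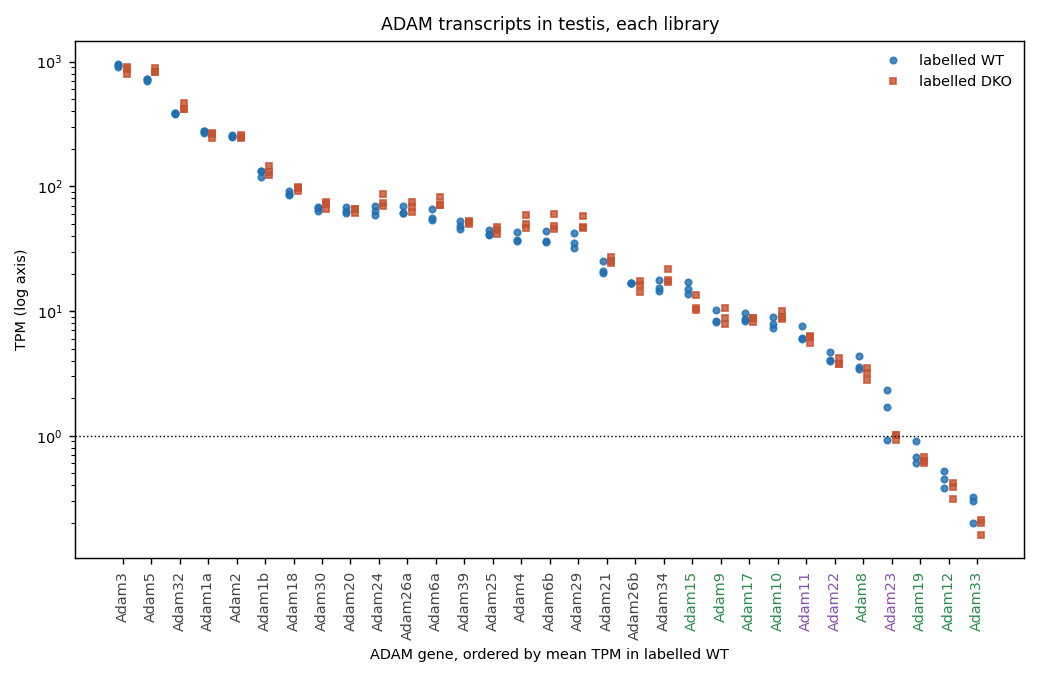
TPM of the 31 tested ADAM genes (log axis), 1 point per library, circles for labelled WT and squares for labelled DKO, ordered by mean TPM in labelled WT, with the dotted line at 1 TPM. Gene names in grey are the fertilin and sperm-surface group, in green the broadly expressed proteases and in purple Adam11, Adam22 and Adam23. Levels run from above 900 TPM for Adam3 to below 1 TPM for Adam19, Adam12 and Adam33.

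Broadly expressed ADAM proteases were measured at far lower levels. Adam15 was the highest at 15.3 ± 1.65 TPM in labelled WT. Adam9, Adam17 (the sheddase of tumour necrosis factor) and Adam10 (a sheddase of Notch) followed at 8.88 ± 1.09, 8.81 ± 0.696 and 8.06 ± 0.821 TPM, and did not differ beyond their spread. Adam8, a leukocyte gene, had 3.81 ± 0.498 TPM. The members that lack an active site and bind LGI proteins in the nervous system had 6.55 ± 0.924 TPM for Adam11, 4.26 ± 0.385 TPM for Adam22 and 1.65 ± 0.706 TPM for Adam23 (labelled WT; SD, n = 3 each).

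At the 1 TPM boundary, Adam23 and Adam8 were the closest above, at 1.65 and 3.81 TPM, and Adam19 and Adam12 the closest below, at 0.73 and 0.45 TPM. The boundary fell inside the spread of Adam23, which had 0.93, 2.34 and 1.69 TPM in the libraries labelled WT. Adam33 had 0.27 TPM. Adam28 had at most 1 count in any library and was not tested.

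Which ADAM genes differ between the labelled genotypes was asked with the edgeR quasi-likelihood test on rounded expected counts, fitted over all 17110 genes that passed the count filter, 31 of them ADAM members. Adam29, Adam4, Adam6b, Adam6a and Adam5 rose in libraries labelled DKO and Adam15 fell, each at an adjusted p under 0.05 (Benjamini-Hochberg). That is 6 of the 31 tested members (19.4%), against 10.8% of all tested genes. The 5 higher members stand against 5.75% of all tested genes called higher, and the 1 lower member against 5.1% called lower. All 6 are among the 28 members at or above 1 TPM, and of all tested genes at that level 12.7% were called, 6.72% higher and 5.95% lower. All 5 higher members are in the fertilin and sperm-surface group, of which 20 were tested, 17 with a log2 fold change above 0. Its median was 0.17, beside 0.12 for all tested members and -0.0042 for all tested genes. No member reached a log2 fold change of 1 in size.

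The folds of the 6 called members held their direction when any 1 library was left out, but the calls did not all hold. Without each library in turn, log2 fold changes were 0.39 to 0.65 for Adam29, 0.34 to 0.56 for Adam4, 0.30 to 0.57 for Adam6b, 0.32 to 0.52 for Adam6a, 0.24 to 0.34 for Adam5 and -0.46 to -0.30 for Adam15. Leaving out DKO replicate 1, DKO replicate 2, WT replicate 2 or WT replicate 3 left 0 members called in each edgeR fit, with 6, 11, 8 and 9 members at an unadjusted p under 0.05. Over all genes those fits called 11, 655, 13 and 7. Leaving out DKO replicate 3 or WT replicate 1 gave 9 called members in each. Over all genes those fits called 3029 of 17089 and 2037 of 17447 tested.

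**Figure D2:**
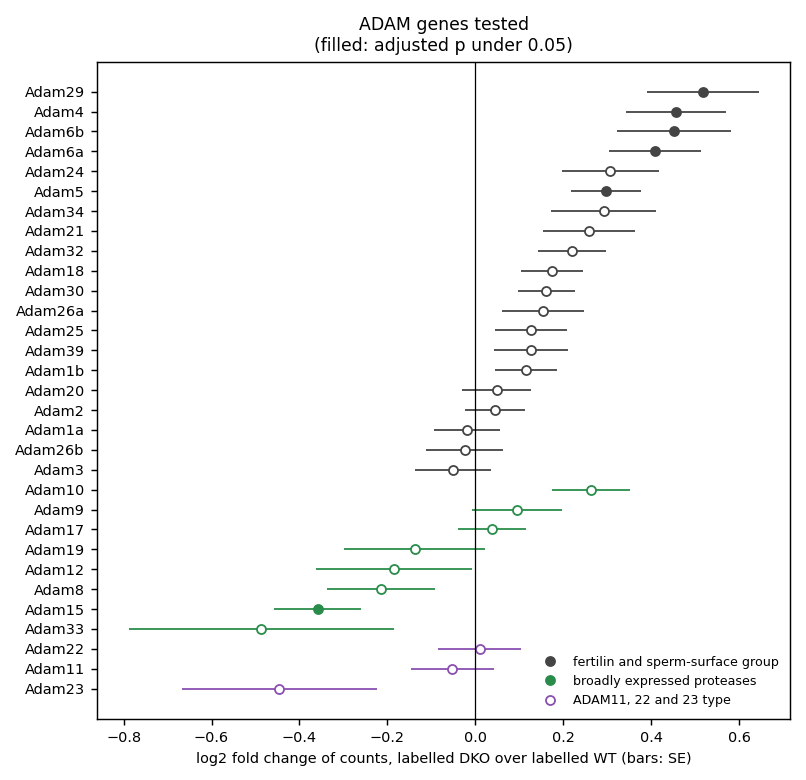
Log2 fold change of counts (labelled DKO over labelled WT) of the 31 tested ADAM genes with its standard error, from the edgeR fit over all 6 libraries, ordered within each group of members. Filled points passed an adjusted p of 0.05: Adam29, Adam4, Adam6b, Adam6a and Adam5 on the right and Adam15 on the left.

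Adam29, a testis gene on chromosome 8 (55870912 to 55906964), had the largest rise. Its normalized CPM (counts scaled to library size) were 99.6, 83.0 and 78.7 in libraries labelled DKO and 73.2, 50.5 and 59.0 in those labelled WT. Every library labelled DKO was above every one labelled WT, though DKO replicate 3 exceeded WT replicate 1 by less than the spread within either group. On the log2 scale the rise was 0.52 (SE 0.128; edgeR adjusted p = 0.0358).

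Adam4, a single-coding-exon gene on chromosome 12 that is found in complexes with ADAM3 on sperm, was at 84.7, 73.8 and 63.6 CPM in labelled DKO and 62.0, 48.9 and 51.0 CPM in labelled WT. The groups did not overlap, but the lowest library labelled DKO and the highest labelled WT nearly met. On the log2 scale the rise was 0.46 (SE 0.114; edgeR adjusted p = 0.0361). Adam4 also carried fractional counts, in 5 of 6 libraries.

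Adam6a and Adam6b lie within the immunoglobulin heavy chain locus on chromosome 12 (113543908 to 113546414 and 113489565 to 113491835). Adam6a had 128, 114 and 106 CPM in labelled DKO and 102, 79.3 and 81.2 CPM in labelled WT, without overlap (log2 fold change 0.41, SE 0.104; edgeR adjusted p = 0.0372). Adam6b had 84.1, 69.0 and 60.6 CPM against 61.4, 45.9 and 48.9 CPM. DKO replicate 3 was below WT replicate 1, so the groups overlapped in CPM (0.45, SE 0.129; edgeR adjusted p = 0.0478). Because this pair shares the identical coding run of 223 bases given above, their counts were also summed, an alternative chosen after seeing the data. The sum was 187 ± 22.8 CPM in labelled DKO and 140 ± 20.8 CPM in labelled WT (SD, n = 3 each), and this sum rose by 0.43 on the log2 scale (SE 0.113; edgeR adjusted p = 0.0397). A sum does not depend on how fragments were split between the copies.

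Among the 6 members with the highest level, Adam5 was the only 1 called with edgeR. It had 1600, 1519 and 1411 CPM in labelled DKO and 1296, 1142 and 1250 CPM in labelled WT, with all libraries labelled DKO above the others (0.30, SE 0.0795; edgeR adjusted p = 0.0404). Its neighbour Adam3 had 1490, 1603 and 1303 CPM against 1532, 1457 and 1565 CPM, with overlap (-0.05, SE 0.0855; edgeR adjusted p = 0.720). The ratio of Adam5 to Adam3 in TPM was 1.02, 0.904 and 1.03 in libraries labelled DKO and 0.807, 0.749 and 0.762 in those labelled WT. This ratio was chosen after its values were seen and is given as a description, with no test.

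Adam15, a broadly expressed membrane protease, was the only member called lower. It had 19.2, 20.6 and 24.1 CPM in labelled DKO and 25.8, 29.2 and 27.0 CPM in labelled WT. The groups did not overlap (-0.36, SE 0.0984; edgeR adjusted p = 0.0431). Adam15 has 21 or 23 coding exons by transcript, where Adam29, Adam4, Adam6a and Adam6b have 1, and its exons overlap 4731419I09Rik on the other strand. Strand handling is not given in the sources used here, so reads of the 2 genes may be mixed.

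**Figure D3:**
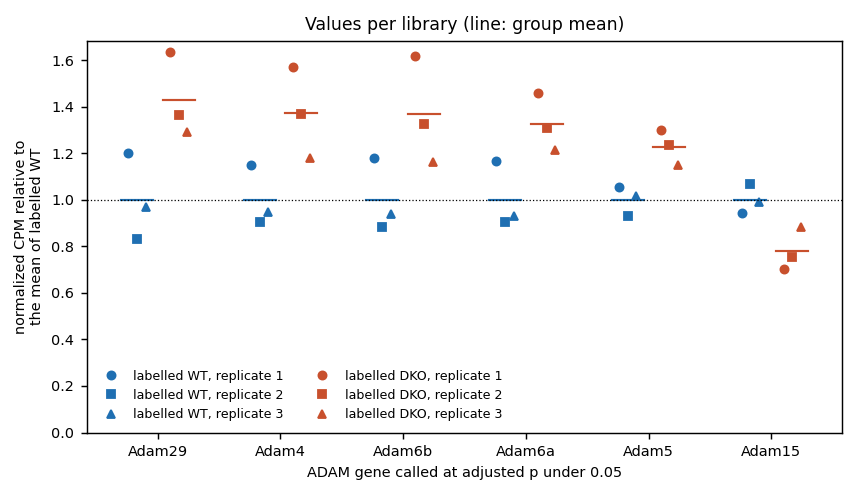
Normalized CPM of the 6 called ADAM genes in each library, divided by the mean of labelled WT (linear axis from 0, symbols by replicate, short lines for group means). DKO replicate 1 is highest for all 5 genes that rose and lowest for Adam15, and WT replicate 1 reaches or nears DKO replicate 3 for Adam29, Adam4, Adam6b and Adam6a.

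The genes for ADAM1 and ADAM2 did not pass the test. Adam2 had 414, 403 and 382 CPM in labelled DKO and 399, 376 and 387 CPM in labelled WT (0.04, SE 0.0684; edgeR adjusted p = 0.690). Adam1a had 485, 549 and 496 CPM against 543, 504 and 504 CPM (-0.02, SE 0.0752; edgeR adjusted p = 0.886), and Adam1b 240, 231 and 255 CPM against 216, 221 and 233 CPM (0.12, SE 0.0707; edgeR adjusted p = 0.287). All 3 overlapped between the groups. Adam1a and Adam1b summed gave 752 ± 27.5 CPM in labelled DKO and 741 ± 17.7 CPM in labelled WT (SD, n = 3 each). Adam1a exons also overlap Mapkapk5 on the same strand and Tmem116 on the other.

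Other sperm members lay between these and the called genes. Adam32 had 708, 652 and 608 CPM in labelled DKO and 580, 539 and 570 CPM in labelled WT, without overlap, but missed the threshold (0.22, SE 0.0767; edgeR adjusted p = 0.0785). Adam18 and Adam30 did not overlap either (log2 fold changes 0.18 and 0.16; edgeR adjusted p = 0.113 and 0.116). Of the 31 tested members, 8 did not overlap with labelled DKO higher and 1 with it lower, against 18.4% and 17.5% of all tested genes. Adam24, whose protein is known to help prevent entry of a further sperm, had 0.31 (SE 0.111; edgeR adjusted p = 0.0854). The Adam20, Adam25 and Adam39 copies summed to 254 ± 9.54 CPM in labelled DKO and 238 ± 22.8 CPM in labelled WT (0.09, SE 0.0808; edgeR adjusted p = 0.452). The Adam26a, Adam26b and Adam34 copies summed to 159 ± 15.3 and 143 ± 15.1 CPM (0.15, SE 0.0937; edgeR adjusted p = 0.294; SD, n = 3 each).

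Among the broadly expressed proteases, 1 of 8 tested was called (Adam15), 12.5% against 10.8% of all tested genes. Of these 8, 5 had a log2 fold change below 0, as had 8670 of all 17110 tested genes. Adam10 was the nearest to a call among the other proteases. It had 30.7, 26.9 and 25.9 CPM in labelled DKO and 22.1, 24.6 and 22.8 CPM in labelled WT, without overlap (0.26, SE 0.0887; edgeR adjusted p = 0.0717). Adam17, with 26.1, 24.8 and 24.5 CPM against 24.9, 25.4 and 23.1 CPM, and Adam9 did not pass (0.04 and 0.09; edgeR adjusted p = 0.774 and 0.561). Adam8, Adam19 and Adam12 had log2 fold changes of -0.21, -0.14 and -0.19, none past the threshold (edgeR adjusted p = 0.251, 0.586 and 0.503).

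Adam11, Adam22 and Adam23 gave 0 calls of 3 with edgeR, DESeq2 and limma-voom, with 0, 1 and 0 of them at an unadjusted p under 0.05. Adam23 varied most within labelled WT, at 2.73, 5.97 and 4.49 CPM, against 3.32, 2.98 and 3.46 CPM in labelled DKO (-0.45, SE 0.222; edgeR adjusted p = 0.193). WT replicate 1 lay below every library labelled DKO. Without it the difference passed the threshold (-0.70; edgeR adjusted p = 0.0302, range over the 6 fits that each left out a library up to 0.663). RSEM's gene length moves with which transcripts it estimates to be used, and Adam23 has 2. Its deposited length was 4899, 4745 and 5379 bases in labelled DKO and 4483, 4282 and 4239 bases in labelled WT. It was the only 1 of 9 tested members with several transcripts and a varying length whose lengths did not overlap, and 17.5% of all such tested genes did not.

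Fold changes of the members ran with the GC content of their transcripts. The fertilin and sperm-surface members have a median GC of 43.0% (38.2% to 50.2%), against 50.1% for all tested genes. Across all 16840 tested genes with a GC value, the log2 fold change fell with GC (Spearman's rho -0.582, across genes, which are not independent replicates). Across the 31 tested members rho was -0.73, over genes that share all 6 libraries. Of 5 GC classes of equal size, the lowest (up to 44.4%) had a median log2 fold change of 0.24 over all its genes, with 18.6% called higher and 0.683% lower. That class holds 15 members, among them all 5 that rose. Adam29 has the lowest GC of the family, at 38.2%. In the highest class (55.8% and above) the median was -0.20, with 12.6% called lower, and it holds Adam15 at 59.5%.

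**Figure D4:**
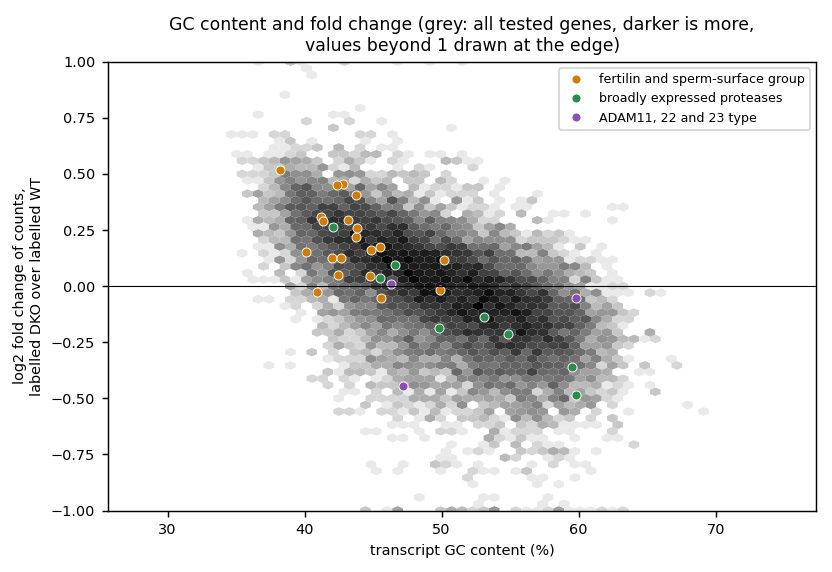
Transcript GC content (%) against log2 fold change of counts (labelled DKO over labelled WT). Grey hexagons count all tested genes on a log colour scale, and coloured points are the 31 tested ADAM genes by group. Both the family and the background fall from left to right, with Adam29 at 38.2% GC and 0.52 at the upper left and Adam15 at 59.5% GC and -0.36 at the lower right.

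Counts of the same members also followed fragment length within each genotype. Fragments were longest in DKO replicate 1, then 2, then 3, and in WT replicate 1, then 3, then 2. Adam29, Adam4, Adam6a, Adam6b and Adam5 had their libraries in this order in both groups, 5 of the 5 members that rose. The same held for 10 of the 31 tested members, for 9.38% of all tested genes and for 43.4% of all genes called higher. Fragment length does not overlap between the genotypes, so the part of each in these differences cannot be told apart.

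When trends with GC and with transcript length were taken out of every library, none of the 5 members that rose passed the edgeR threshold. Adam4 was then at 0.24, Adam6b at 0.22, Adam6a at 0.21, Adam29 at 0.15 and Adam5 at 0.08, all still above 0 (edgeR adjusted p = 0.146, 0.220, 0.165, 0.325 and 0.421). Over the alternatives that kept all libraries, adjusted p ranged from 0.00136 to 0.999 for Adam29 and from 0.00257 to 0.999 for Adam4. Adam15 was at -0.18 (edgeR adjusted p = 0.220). The only member called in that fit was Adam26b, lower at -0.30 (edgeR adjusted p = 0.0398), a copy that shares fragments with Adam26a. That fit called 646 genes in all. With an offset from effective lengths alone the 6 calls remained, at 0.51 for Adam29 and 0.29 for Adam5 among them. With mean fragment length as a covariate, 0 members were called (0 at an unadjusted p under 0.05), and 15 of 20 sperm members had a log2 fold change below 0. The covariate fit called 1 of all 17110 tested genes, with 545 at an unadjusted p under 0.05. In it, 8882 of all tested genes had a log2 fold change below 0.

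**Figure D5:**
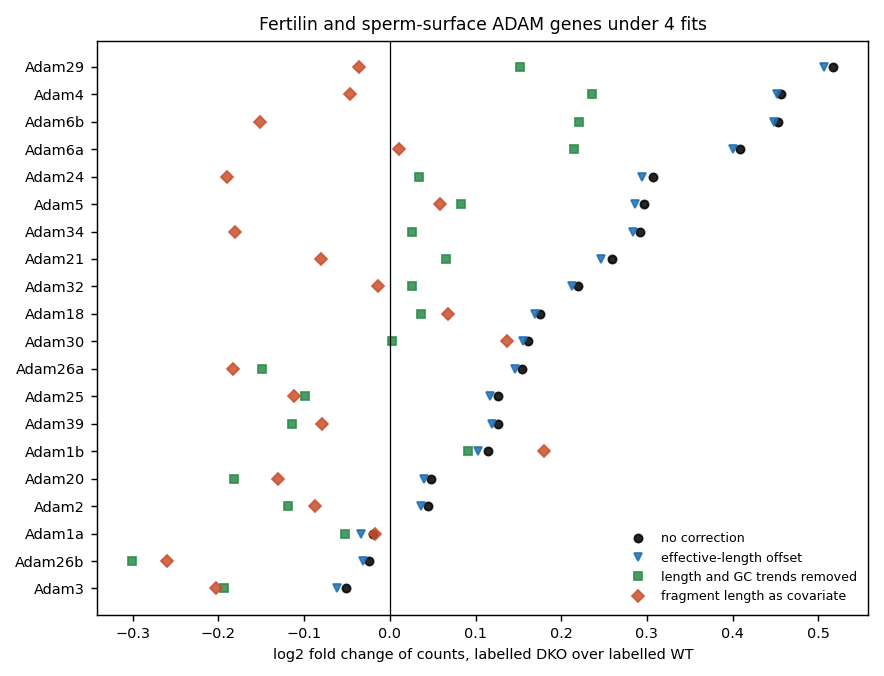
Log2 fold change of counts (labelled DKO over labelled WT) of the 20 tested fertilin and sperm-surface genes under 4 edgeR fits, 1 symbol per fit. The effective-length offset stays beside the uncorrected value for each gene, values with length and GC trends removed lie nearer 0 for the 5 genes that rose, and values with fragment length as a covariate lie below 0 for 15 of the 20.

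Adam6a and Adam6b are copies upstream of the gene as well, and their upstream windows are shown for that. RefSeq windows of 250 bases before the annotated start (GRCm38.p6) were held for 17 of the 33 members, in 19 windows, with Adam6a, Adam6b and Adam29 among the 5 genes that rose. The windows are chr12:113543658-113543907 and chr12:113489315-113489564, both on the plus strand. Capitals mark the letters TATAAA, here read on the opposite strand.
Adam6a: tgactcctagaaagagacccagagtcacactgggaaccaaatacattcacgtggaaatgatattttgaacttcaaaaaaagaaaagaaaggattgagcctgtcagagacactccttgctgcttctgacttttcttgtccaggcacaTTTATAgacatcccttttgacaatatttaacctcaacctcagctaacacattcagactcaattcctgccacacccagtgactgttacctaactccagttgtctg
Adam6b: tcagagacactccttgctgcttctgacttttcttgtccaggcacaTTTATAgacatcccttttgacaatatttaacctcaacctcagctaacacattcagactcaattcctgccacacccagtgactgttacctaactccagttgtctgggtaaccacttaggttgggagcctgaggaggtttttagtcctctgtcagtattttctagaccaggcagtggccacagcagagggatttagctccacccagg
The upstream windows of Adam6a and Adam6b hold an identical run of 149 bases, which ends at the start of Adam6a and lies 101 bases farther from the start of Adam6b. The run is cut at an edge of each window, so its full length is not shown. The 101 bases are counted from annotated starts, and that of Adam6a lies before its coding start. The annotated Adam6b transcript is 2271 bases long for 2268 coding bases, so its annotated start is the coding start and its window is upstream of the coding sequence. Counted from the coding starts instead, the run lies equally far upstream in Adam6a and Adam6b. The letters TATAAA, searched on both strands, were in 3 of the 19 member windows (15.8%, against 12.4% of all windows), those of Adam6a, Adam6b and Adam29. The match starts at base -104 before the start of Adam6a, at -205 for Adam6b and at -219 for Adam29, and that of Adam6a and Adam6b lies in their shared run. The cyclic AMP response element TGACGTCA, also searched on both strands like the motifs that follow, was in 0 of the 19 member windows (1.5% of all windows), and its shorter form TGACG, which the whole element contains, in 1, that of Adam10 (17.8%). The X-box core GTTGCC was in 2 (10.4%) and CCAAT in 9 (33.8%), Adam29 and Adam15 among the latter. A match describes letters in these windows only.

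Genes that help ADAM3 and other sperm ADAMs mature were read from the same fit. Of 16, 2 were called with edgeR, both higher (12.5%, against 10.8% of all tested genes). DESeq2 called 6, beside 2943 of all 17110 tested genes, and limma-voom 2, beside 1685 of them. Prss37, a protease-like protein needed for mature ADAM3 on sperm, had 162, 154 and 131 CPM in labelled DKO and 127, 102 and 97.5 CPM in labelled WT (0.46, SE 0.109; edgeR adjusted p = 0.0343). Pmis2, a sperm protein needed for entry into the oviduct, had 48.5, 45.6 and 39.4 CPM against 39.3, 28.03 and 33.6 CPM (0.41, SE 0.118; edgeR adjusted p = 0.0498). In Prss37 and Pmis2 the groups did not overlap. Both calls are from the edgeR fit with all libraries and no correction. With fragment length as a covariate, edgeR called 0 of all 17110 tested genes higher, so neither was called. The fits without DKO replicate 1, WT replicate 2 or WT replicate 3 also called 0 genes higher. Cmtm2a had the highest level of this list, at 878.5 ± 43.1 CPM in labelled DKO and 873 ± 14.4 CPM in labelled WT (SD, n = 3 each; 0.01, edgeR adjusted p = 0.944). The list's median log2 fold change was 0.12.

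Convertases that remove the ADAM prodomain had 1 call of 5, lower, against 5.1% of all tested genes called lower. Pcsk4, the germ-cell convertase, fell from 220, 199 and 206 CPM in labelled WT to 150, 178 and 171 CPM in labelled DKO, without overlap (-0.32, SE 0.0813; edgeR adjusted p = 0.0366). This call is from the fit with all libraries and no correction. DESeq2 called 2 of the convertases (Furin and Pcsk4) and limma-voom 1 (Pcsk4), beside 2943 and 1685 of all 17110 tested genes. All 5 convertases had a log2 fold change below 0, as had 8670 of all 17110 tested genes, with a median of -0.32 against -0.0042. Of the partners and inhibitors of the ADAM10 and ADAM17 sheddases (iRhoms, tetraspanins, TIMPs), 13 of 14 were tested and 0 called with edgeR, 4 of them at an unadjusted p under 0.05. DESeq2 called 2 of these (Rhbdf2 and Frmd8) and limma-voom 0, beside 2943 and 1685 of all 17110 tested genes. The median of these partners and inhibitors was -0.27. Timp2, the highest of them in level, had 117 ± 8.58 CPM in labelled DKO and 133 ± 15.8 CPM in labelled WT (SD, n = 3 each; -0.19, edgeR adjusted p = 0.196).

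Cell type markers moved beside these groups. In bulk tissue, fewer cells of a type and less RNA per cell cannot be told apart. Over all tested genes, edgeR called 5.75% higher and 5.1% lower, the shares beside which its counts of markers stand. Its calls of markers are from the fit with all libraries and no correction. Spermatocyte markers summed to 850 to 1048 TPM in labelled DKO and 734 to 784 TPM in labelled WT, with a median of 0.33. Of 9, 2 were called higher (Sycp3 and Hormad1, meiotic chromosome axis genes). The groups overlapped in Hormad1 (edgeR adjusted p = 0.0498). DESeq2, which called 2943 of all 17110 tested genes, called Sycp2 and Sycp3 here, and limma-voom called Sycp3 alone. With fragment length as a covariate, or without DKO replicate 1, WT replicate 2 or WT replicate 3, edgeR called 0 genes higher. Neither Sycp3 nor Hormad1 was thus called in those fits. Spermatid markers had 0 of 10 called with edgeR, DESeq2 and limma-voom (0, 1 and 1 at an unadjusted p under 0.05) and a median of 0.03. Leydig markers summed to 812 to 1453 TPM in labelled DKO and 1430 to 3001 TPM in labelled WT. Insl3 alone was at 582 to 1193 and 1215 to 2576 TPM, so these sums follow 1 gene. Of 6, 2 were called lower (Star and Insl3), the only 2 without overlap in CPM. DESeq2 called Star alone, and limma-voom called both. The median was -0.49, with 5 log2 fold changes below 0 and 1 above. Sertoli markers summed to 1095 to 1364 and 1224 to 1562 TPM with 1 of 8 called lower, macrophage markers to 39.8 to 48.9 and 37.2 to 64.5 TPM with 0 of 6 called, and peritubular and endothelial markers to 46.9 to 58.2 and 54.4 to 77.4 TPM with 0 of 6 called. Of those called 0 by edgeR, 2 macrophage and 3 peritubular and endothelial markers had an unadjusted p under 0.05. DESeq2 called 2 of the latter (Acta2 and Myh11) and none of the former, and limma-voom called 0 of both. Spermatogonia markers summed to 113.5 to 129 and 110 to 128 TPM with 0 of 8 called by any of these tools, 1 of them at an unadjusted p under 0.05 in each. The part of these markers in the ADAM differences was not tested.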

How the data were processed

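RNA of 6 testis libraries, 3 labelled MRP5-/- and MRP9-/- and 3 labelled Wildtype, was analysed from the deposited gene tables. STAR 2.7.0f, RSEM 1.2.31, DESeq2 1.12.3 and the mm10 build are named in the submitters' processing notes. Per the file headers, each table gives RSEM expected counts, TPM and FPKM, and a length and effective length per gene. The deposited expected counts are estimates, 93.2% of them whole within 0.005. The deposited TPM values were used for levels and the deposited FPKM values were not used.

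Expected counts were rounded, filtered with filterByExpr, scaled by TMM and tested with the edgeR 4.0.16 quasi-likelihood test (genotype only, all 6 libraries, Benjamini-Hochberg over 17110 genes, called under 0.05). The biological coefficient of variation was 9.34%. Errors of log2 fold changes are the fold change over the square root of F. The fit was tested on simulated data. Mean fragment length was read from how far a gene's effective length falls short of its length, as the median over genes longer than 3000 bases. GC came from GENCODE M21 transcripts, found for 97.8% of genes. Alternatives used DESeq2 1.42.0, limma 3.58.1 and mgcv 1.9.3. Copies were aligned with Biopython 1.88.

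Abcc5 and Abcc12 are named as a check of the labels. Members named with values are those called, the 6 highest in level, Adam1a, Adam1b, Adam2, Adam3, Adam9, Adam10, Adam15, Adam17 and the 2 on either side of 1 TPM. Other members are named after their values were seen, for copies, overlaps or GC. From the other lists, called genes and the highest in level are named. The members and lists were chosen with earlier results of these data known. Replicates are numbered in order of deposition and are not paired.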

Additional observations from a re-analysis of the deposited data

How the results depend on the processing

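The number of ADAM calls moved with the scale, the correction and the libraries left in, while on the TPM scales the folds stayed near those from counts. On log2(TPM + 1), Adam29 was at 0.46, Adam4 at 0.40, Adam6b at 0.39, Adam6a at 0.35, Adam5 at 0.24 and Adam15 at -0.40 (limma adjusted p = 0.0533, 0.0544, 0.0742, 0.0542, 0.0589 and 0.0721). The count of 6 members, and that of 1856 genes over all, were replaced by 0 and 735 (279 higher, 456 lower) with limma on log2(TPM + 1), by 1 and 947 (370 higher, 577 lower) on log2(TPM + 0.1), by 1 and 646 with length and GC trends removed, by 0 and 1 with fragment length as a covariate, by 0 and 7 at an adjusted p under 0.01, and by 0 and 49 where a change of 1 on the log2 scale was also required. In both limma fits on TPM, 9 members had an unadjusted p under 0.05. DESeq2 called 8 members (Adam24 and Adam32 beside the 6) and 2943 genes (1645 higher, 1298 lower). Fits that each left out a replicate gave 0 to 9 members and 7 to 3029 genes. The cause of these changes was not tested. DESeq2 size factors, both other count filters, unrounded counts, limma-voom, the effective-length offset, the length trend, thinning and summed copies gave 5 or 6 members and 1661 to 2321 genes.

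Of 356 values of the 18 named members under other settings, 24 changed sign. With fragment length as a covariate these were Adam32 (-0.014), Adam2 (-0.087), Adam4 (-0.047), Adam6b (-0.15), Adam29 (-0.036), Adam17 (-0.024), Adam23 (0.11) and Adam19 (0.083). With length and GC trends removed they were Adam2 (-0.12), Adam9 (-0.028) and Adam17 (-0.12), with the length trend removed Adam17 (-0.016), and on log2(TPM + 1) and log2(TPM + 0.1) Adam2 (-0.0099 in both) and Adam17 (-0.029 and -0.032). Leaving out a replicate gave -0.13 to 0.027 for Adam3, -0.084 to 0.0026 for Adam1a, -0.0046 to 0.16 for Adam9, -0.0048 to 0.059 for Adam17 and -0.26 to 0.010 for Adam19. None of these 24 values passed the threshold.

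The number of members at 1 TPM was 29 at 0.5 TPM, 27 at 2 TPM and 28 without any 1 WT replicate. No paired analysis was possible because the labels give no shared replicate numbers. Adam7 and Adam28, with at most 1 count in any library, allow no comparison at this depth.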
